A study of Rattus norvegicus with 6 samples.

Results

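The genes described here are 10 transcription factors and signals that pattern the Müllerian duct, other than the Hox genes, in whole ovaries of rats 4.5 days after mating. They were Pax8, Pax2, Emx2, Lhx1, Foxa2, Wnt4, Wnt5a, Wnt7a, Msx1 and Msx2. All 10 were measured, by the 14 probe sets that the platform annotation maps to 1 of them alone, of 31042 probe sets tested in all. Pax8 and Wnt7a had 2 probe sets each, Msx2 had 3, and the other genes had 1. Affymetrix arrays were hybridized with 6 RNA pools, 3 from overfed and 3 from lean females. Overfed rats had received liquid diet through a feeding tube (total enteral nutrition) at 220 kcal per kg of metabolic weight for 28 days, and lean rats had received 155 kcal in the same way and for the same time. Both groups were mated with lean males, and the labels used here give neither the strain nor the number of animals in a pool. Each value is a log value, read as log2, relative to that probe set's own median over the 6 pools. The ovary's defining markers therefore could not be checked for their level, and no level can be compared between genes.

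The Müllerian ducts are the paired embryonic tubes from which the oviducts, uterus and upper vagina form. Lhx1, Pax2, Pax8 and Emx2 are transcription factors that, in the mouse, are needed as the duct grows or is kept, and Wnt4 is the secreted signal that starts its invagination. Wnt7a from the epithelium and Wnt5a from the surrounding mesenchyme then keep regional identity along the tract together with posterior Hox genes such as Hoxa10. In the adult, Pax8 marks secretory cells of the oviduct, Foxa2 marks uterine glands, and Msx1 and Msx2 act in the uterine epithelium around implantation. Of these genes, Wnt4 is also known for its part in the development of the ovary itself.

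The promoters of 3 members are shown. Msx1 and Pax8 had all within-group pairs of pools in the order of Hoxa10, as had Pax2, Emx2 and Foxa2, which are not shown. No probe set of Msx2 did. The sequences are RefSeq's for the rat build GRCr8, 250 bases before to 50 bases after the annotated start, 5′ to 3′ on the gene's strand. Capitals mark the CCAAT box (CCAAT on either strand), the binding motif of NF-Y. The positions are chr14:77185552-77185851 on the plus strand for Msx1, chr3:27640582-27640881 on the minus strand for Pax8 and chr17:11102034-11102333 on the plus strand for Msx2.
Msx1: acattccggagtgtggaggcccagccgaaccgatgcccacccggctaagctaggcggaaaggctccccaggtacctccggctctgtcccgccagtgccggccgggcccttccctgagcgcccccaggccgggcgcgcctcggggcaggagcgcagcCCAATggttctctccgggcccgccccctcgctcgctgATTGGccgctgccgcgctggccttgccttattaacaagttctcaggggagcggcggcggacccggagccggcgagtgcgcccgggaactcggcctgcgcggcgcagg
Pax8: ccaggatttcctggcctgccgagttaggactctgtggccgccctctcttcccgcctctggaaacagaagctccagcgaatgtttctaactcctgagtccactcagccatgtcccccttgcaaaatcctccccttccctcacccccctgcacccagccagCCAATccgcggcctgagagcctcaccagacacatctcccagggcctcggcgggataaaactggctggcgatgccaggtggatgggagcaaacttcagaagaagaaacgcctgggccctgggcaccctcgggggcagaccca
Msx2: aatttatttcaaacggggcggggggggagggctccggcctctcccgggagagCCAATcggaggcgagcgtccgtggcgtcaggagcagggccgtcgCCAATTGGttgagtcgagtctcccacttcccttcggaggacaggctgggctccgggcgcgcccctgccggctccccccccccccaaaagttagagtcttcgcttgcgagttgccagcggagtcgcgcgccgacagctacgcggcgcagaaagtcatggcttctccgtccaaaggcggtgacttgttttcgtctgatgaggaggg
Msx1 holds a match at base 157 on the plus strand and at base 194 on the minus strand, and Pax8 holds 1 at base 160. Msx2 holds matches at bases 53 and 97 on the plus strand and at base 100 on the minus strand, the last 2 of which overlap. Of 33469 rat promoters of this length, 37.5% hold the motif, so it does not set these members apart. Among the members not shown, Foxa2 holds it too. Pax2, Lhx1, Wnt4, Wnt5a and Wnt7a do not, and no promoter was at hand for Emx2. A GC box (GGGCGG on either strand) is in all 3 and in 33.1% of all promoters, and CTTTGA, the core of the TCF/LEF site through which Wnt signals act, was in none of the 3 windows against 16.1% of all. The GC content is 73.0% for Msx1, 65.3% for Msx2 and 61.7% for Pax8, against a median of 51.7% over all promoters. Among the members not shown it runs from 46.7% for Foxa2 to 83.3% for Wnt4.

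Overfed and lean ovaries did not differ in any member past limma's adjusted threshold of 0.05, and 0 of all 31042 probe sets passed it (percent called 0.0). The counts by looser rules rest on few probe sets. At an unadjusted p under 0.05 there were 2 of 14 member probe sets (14.3%), against 6.67% of all. They were 1 of Pax8, lower in overfed ovaries as were 3.36% of all probe sets, and that of Wnt4, higher as were 3.31%. A difference of at least 1.5-fold alone was found in 4 of 14 (28.6%), against 1.7% of all. Both Pax8 probe sets and Foxa2 were lower by that much (1.32% of all were) and Msx1 was higher (0.38% of all). With both rules together Pax8 alone was left (1 of 14 or 7.14%, against 1.3% of all, of which 1.14% were lower and 0.155% higher). The groups did not overlap in Wnt4 alone (1 of 14 or 7.14%, against 12.7% of all probe sets). It was among the 7.35% that were higher without overlap, whereas no member was among the 5.33% that were lower without overlap. Of the 14 differences 6 were above 0 and 8 below, and their median was -0.02, against 0.01 over all. The spread between pools was wider than usual: the median SD between pools of the same group was 0.25 over the members and 0.14 over all probe sets. A range of at least 2-fold over the 6 pools was found in 6 of 14 (42.9%), against 6.19% of all.

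**Figure D1:**
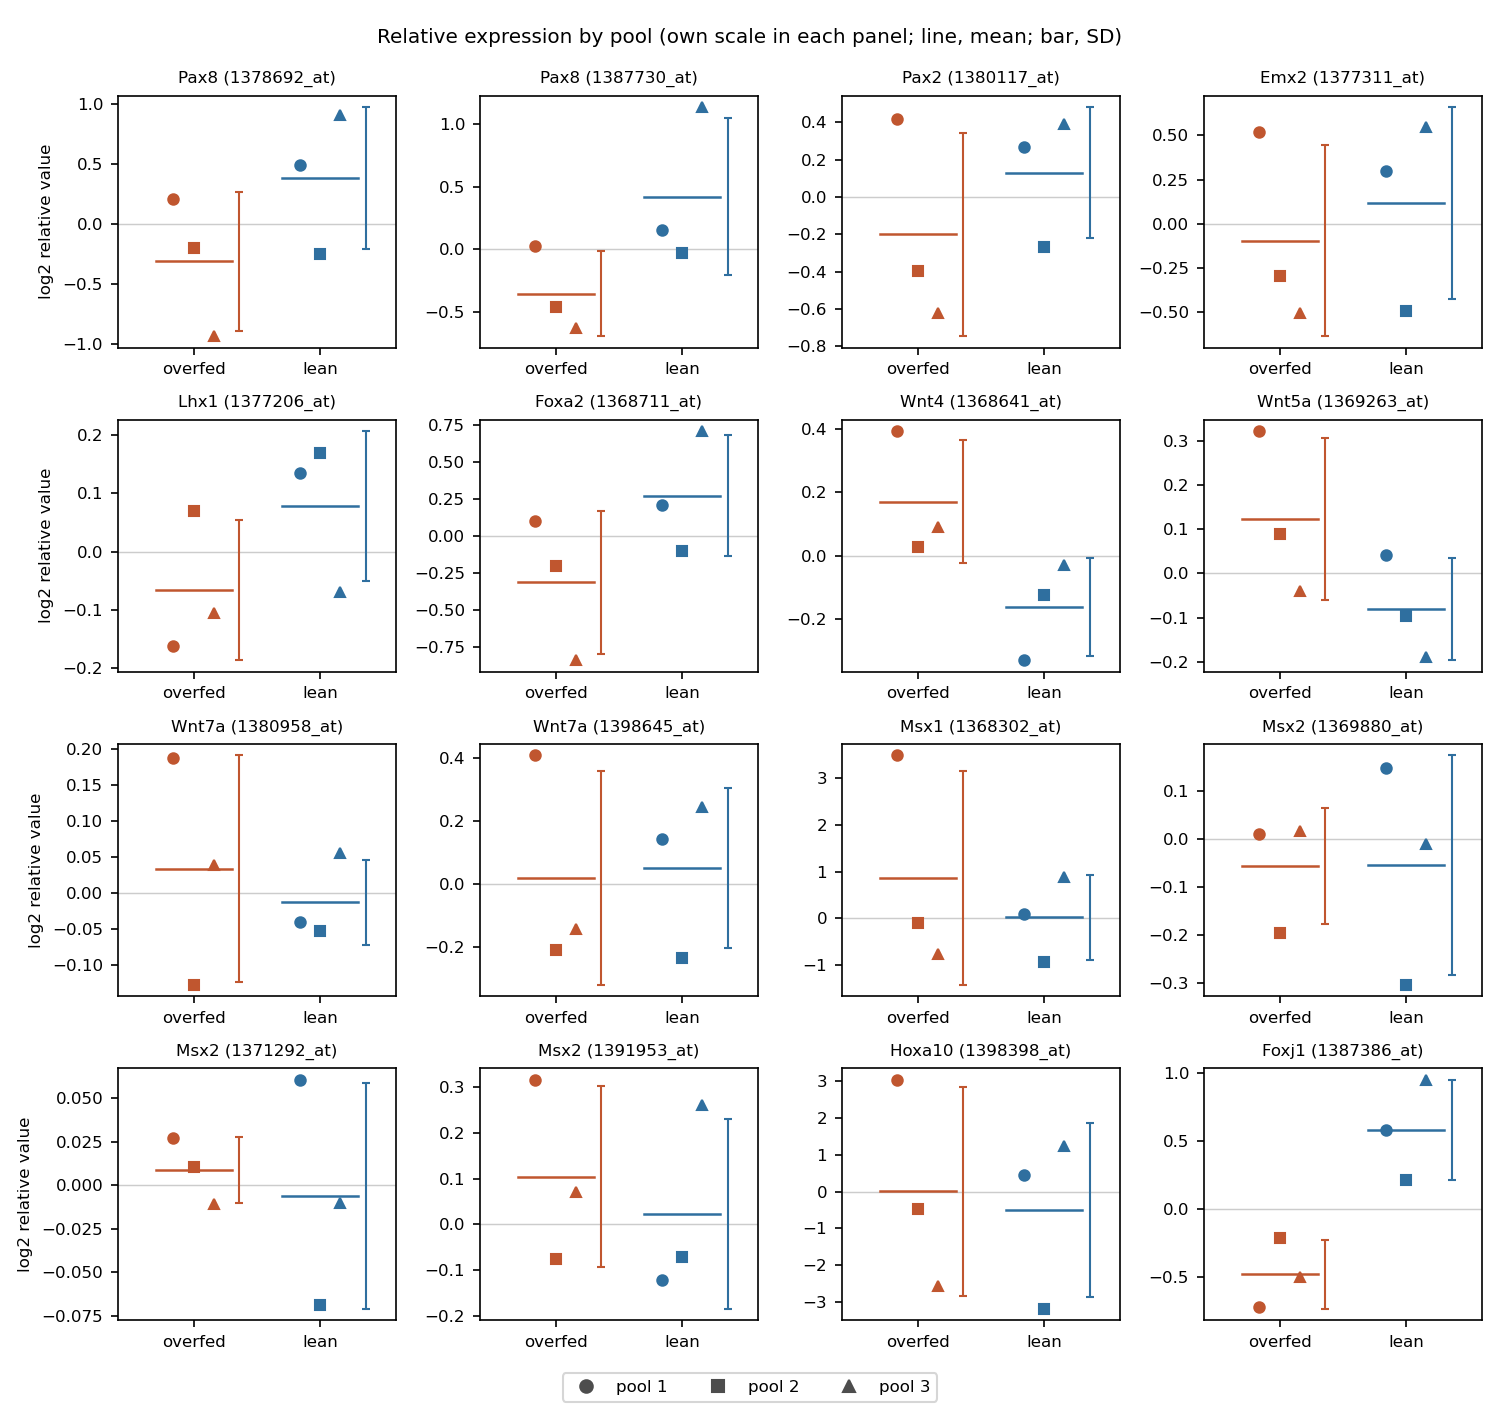
Log2 value relative to the probe set's median (vertical axis, own scale in each panel) for the 14 member probe sets, Hoxa10 and Foxj1, with overfed pools on the left and lean pools on the right. Symbols are pools 1 to 3, lines are means and bars are SDs over 3 pools. Wnt4 and Foxj1 show groups that do not overlap, while Msx1 and Hoxa10 reach 3.48 and 3.04 in overfed pool 1.

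Msx1, a homeobox repressor of the embryonic tract and the uterine epithelium, varied far more between pools than any other member. It stood at 3.48, -0.10 and -0.76 in overfed pools 1 to 3, against 0.10, -0.93 and 0.89 in lean pools 1 to 3. Overfed pool 1 alone was far above the rest, the other pools of both groups overlapped, and the pools of each group were wide apart. The range was 4.41, or 21.2-fold, and 13 probe sets of all 31042, Msx1 included, had a range at least as wide. The difference between the groups was 0.85 (SE 1.07, limma adjusted p = 0.925), with a 95% interval from -1.67 to 3.38. The exact two-sided permutation test over the pools gave p = 0.8. Without overfed pool 1 the difference was -0.45, so 1 pool sets its direction. Its size depended on the processing as well, with 0.38 after quantile normalization and 0.53 with array weights. It was 0.38 without lean pool 2, 1.29 without lean pool 3, 1.34 without overfed pool 2 and 1.67 without overfed pool 3.

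Msx2, the close relative of Msx1, did not share this spread. Its probe set with a RefSeq accession (1369880_at) was at 0.01, -0.20 and 0.02 in the overfed pools and 0.15, -0.30 and -0.01 in the lean pools. Another (1391953_at) was at 0.32, -0.07 and 0.07 in the overfed pools and -0.12, -0.07 and 0.26 in the lean pools. The groups overlapped in both, and in the second the highest pools were overfed pool 1 and lean pool 3, as in Msx1. The third (1371292_at) had a range of 0.13, and 97.2% of all probe sets varied at least as much. The differences were -0.001, 0.08 and 0.01, with limma adjusted p-values from 0.949 to 0.999. The intervals ran from -0.32 to 0.31, from -0.26 to 0.42 and from -0.17 to 0.20. In a centred table a narrow range can come from a steady transcript or from a signal near background, and these cannot be told apart here.

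Among the epithelial factors, Pax8 had the largest difference between the groups. Its probe set with a RefSeq accession (1387730_at) was at 0.03, -0.46 and -0.63 in overfed pools 1 to 3, against 0.16, -0.03 and 1.14 in lean pools 1 to 3. Lean pool 3 was well above all others, and overfed pool 1 reached above lean pool 2, so that the groups overlapped by that pool alone. The mean was -0.35 ± 0.34 in overfed and 0.42 ± 0.63 in lean ovaries (SD, n = 3 pools each). The difference was -0.77 (SE 0.32), 1.71-fold lower in overfed ovaries, with an unadjusted p of 0.0446 and a limma adjusted p of 0.74. Over the pools, the exact permutation test (two-sided) had p = 0.2, where 0.1 is the lowest value that 6 pools in groups of 3 allow. Its other probe set (1378692_at) was at 0.20, -0.20 and -0.94 in the overfed pools and 0.49, -0.26 and 0.91 in the lean pools. Both thus had lean pool 3 highest and overfed pool 3 lowest, and the second differed by -0.69 (SE 0.37, limma adjusted p = 0.822). Without lean pool 2 both had groups that did not overlap, with differences of -0.999 and -1.01. The second was at -0.43 without lean pool 3 and -0.38 without overfed pool 3. Without lean pool 3 the difference of the first probe set was -0.42, and it no longer reached an unadjusted p of 0.05. It did not reach it without overfed pool 2 or 3 either.

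Foxa2, a forkhead factor of uterine glands, had the same order of the 6 pools as Pax8 (1387730_at). It stood at 0.10, -0.20 and -0.84 in the overfed pools, against 0.21, -0.10 and 0.71 in the lean pools. Overfed pool 3 was lowest and lean pool 3 highest, and overfed pool 1 again lay among the lean values. The difference was -0.59 (SE 0.28, limma adjusted p = 0.799), 1.5-fold lower in overfed ovaries, with an exact two-sided permutation p of 0.2. Leaving out overfed pool 1 gave -0.79, leaving out lean pool 3 gave -0.37, and leaving out overfed pool 3 gave -0.32. A technical measure had the same highest and lowest pools, though not the same order between them. The mean of 9 hybridization control probe sets, which measure bacterial and phage spike-ins, was -0.04, -0.05 and -0.25 in overfed pools 1 to 3. It was 0.04, 0.06 and 0.50 in lean pools 1 to 3. Lean pool 3 was highest and overfed pool 3 lowest in these controls, as in Pax8, Foxa2 and Emx2. Every lean array was above every overfed one, as in Foxj1 but not in Pax8, Foxa2 or Emx2. The part of this measure in these or any other differences between the groups was not tested.

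Pax2 and Emx2, which act with Pax8 in the early duct, varied more within the groups than between them. Pax2 was at 0.42, -0.39 and -0.62 in the overfed pools and 0.27, -0.27 and 0.39 in the lean pools. Emx2 was at 0.52, -0.30 and -0.51 in the overfed pools and 0.30, -0.49 and 0.55 in the lean pools. In both, overfed pool 1, lean pool 1 and lean pool 3 were the high pools, and the groups overlapped widely. The differences were -0.33 (SE 0.29, limma adjusted p = 0.883) for Pax2 and -0.21 (SE 0.34, limma adjusted p = 0.942) for Emx2. Single pools set the size of both. Pax2 stood at -0.64 without overfed pool 1, with groups that did not overlap, but at -0.20 without lean pool 3 and -0.12 without overfed pool 3. Emx2 was at -0.52 without overfed pool 1 or without lean pool 2, but at 0.002 without lean pool 3 and -0.008 without overfed pool 3. Lhx1, a LIM homeobox factor of the forming duct, was at -0.16, 0.07 and -0.10 in the overfed pools and 0.13, 0.17 and -0.07 in the lean pools. Its lowest value was in overfed pool 1 and its highest in lean pool 2, the reverse of Msx1, within a range of 0.33 that 60.7% of all probe sets equalled or exceeded. The difference was -0.14 (SE 0.10, limma adjusted p = 0.853), with -0.22 without lean pool 3 and -0.10 without overfed pool 1.

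Of the Wnt ligands, Wnt4 and Wnt5a had higher means in overfed ovaries, and Wnt7a differed by at most 0.05 in either direction. Wnt4 stood at 0.39, 0.03 and 0.09 in the overfed pools, against -0.33, -0.12 and -0.03 in the lean pools. Every overfed pool was above every lean pool, although the nearest 2 values, in overfed pool 2 and lean pool 3, were close together. The mean was 0.17 ± 0.19 in overfed and -0.16 ± 0.15 in lean ovaries (SD, n = 3 pools each). The difference was 0.33 (SE 0.13), 1.26-fold higher in overfed ovaries, with an unadjusted p of 0.037 and a limma adjusted p of 0.725, and the exact two-sided permutation test gave its lowest possible p of 0.1. With 1 pool left out it lay between 0.22 (overfed pool 1 left out) and 0.40 (overfed pool 2 left out). It no longer reached an unadjusted p of 0.05 without lean pool 1, lean pool 2, overfed pool 1 or overfed pool 3. Wnt5a was at 0.32, 0.09 and -0.04 in the overfed pools and 0.04, -0.10 and -0.19 in the lean pools. Overfed pool 3 lay below lean pool 1, and the difference of 0.20 (SE 0.12, limma adjusted p = 0.829) was 0.11 without overfed pool 1. Of the 2 probe sets of Wnt7a, 1398645_at was at 0.41, -0.21 and -0.14 in the overfed pools and 0.14, -0.24 and 0.25 in the lean pools, with a difference of -0.03 (SE 0.20, limma adjusted p = 0.986). The other, 1380958_at, had a range of 0.31 and a difference of 0.05 (SE 0.10, limma adjusted p = 0.961). Both Wnt7a probe sets were highest in overfed pool 1 and overlapped between the groups.

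**Figure D2:**
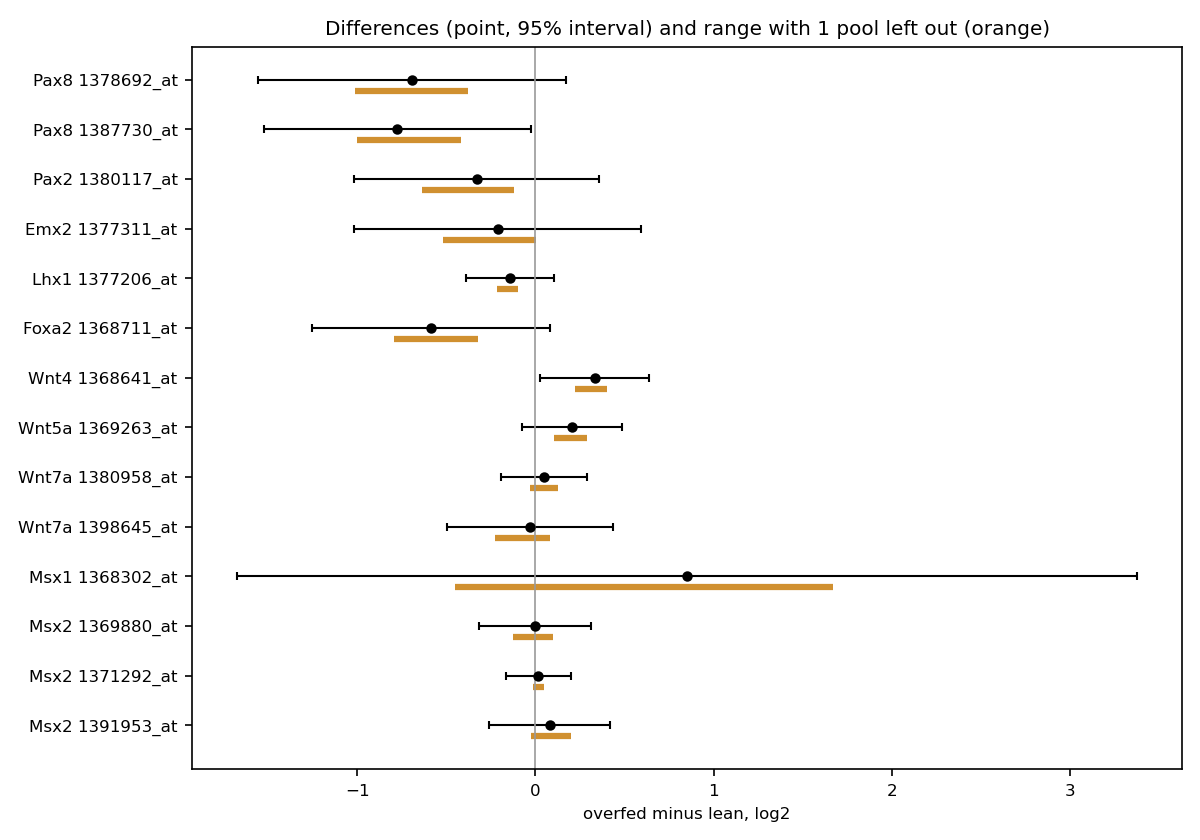
Overfed minus lean difference (log2, horizontal axis) of each member probe set, with its 95% interval from limma's moderated error as a black bar and the range over the 6 fits that each leave out 1 pool as an orange bar. The interval of Msx1 runs from -1.67 to 3.38. The leave-out ranges of Pax8, Pax2, Lhx1 and Foxa2 lie below 0 and those of Wnt4 and Wnt5a above 0.

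The SD between pools of the same group was set against the difference for every probe set. Msx1 had an SD of 1.74, and Hoxa10 one of 2.61. The probe sets of Pax8, Pax2, Emx2 and Foxa2 had SDs from 0.45 to 0.58. Wnt4 had an SD of 0.18, below its difference of 0.33. Both Pax8 probe sets, Foxa2, Wnt5a and Lhx1 also had SDs smaller than their differences, sign aside. The SDs of Msx1, Pax2, Emx2 and all probe sets of Wnt7a and Msx2 were larger than their differences.

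**Figure D3:**
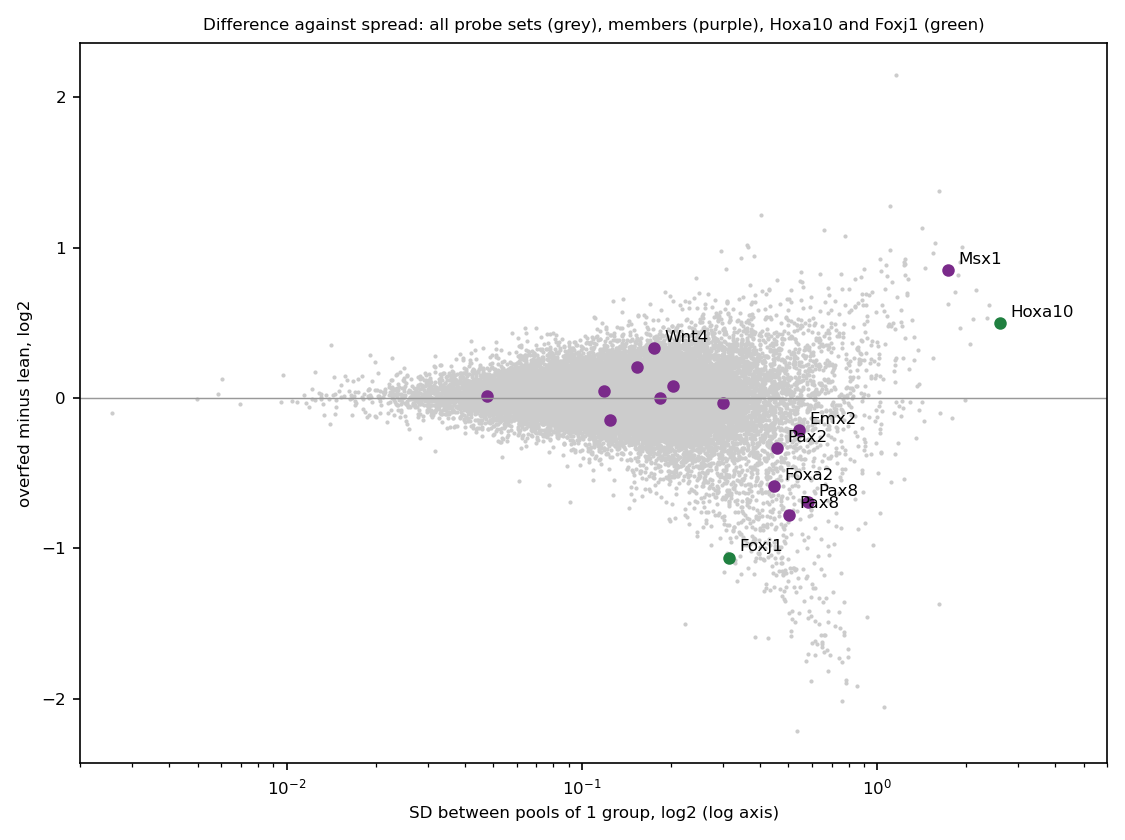
Overfed minus lean difference (log2, vertical axis) against the SD between pools of the same group (log2 units, logarithmic horizontal axis), for all 31042 probe sets in grey, the 14 member probe sets in purple and Hoxa10 and Foxj1 in green. Msx1 and Hoxa10 lie at the far right with small differences relative to their SDs, and Foxj1 lies at -1.06 with an SD of 0.32.

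The order of the pools was compared with that of Hoxa10, the posterior Hox gene of the uterus, and of Foxj1, the master regulator of motile cilia. Hoxa10 was at 3.04, -0.46 and -2.57 in overfed pools 1 to 3 and 0.46, -3.18 and 1.23 in lean pools 1 to 3. Foxj1 was at -0.72, -0.21 and -0.50 in the overfed pools and 0.58, 0.21 and 0.95 in the lean pools. Overfed pool 1 was thus the highest of all pools in Hoxa10 and the lowest in Foxj1, while lean pool 3 was high and lean pool 2 the lowest lean pool in both. Hoxa10 had the widest range of all probe sets, 6.22, with groups that overlapped, whereas the groups of Foxj1 did not overlap (-1.06, SE 0.21, limma adjusted p = 0.623).

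To leave the group difference out, the order was read in the 6 pairs of pools that lie within a group, 3 among overfed and 3 among lean pools. In 6 of the 14 member probe sets, of the 5 genes Msx1, Pax8, Pax2, Emx2 and Foxa2, all 6 pairs had the order of Hoxa10. The share was 42.9%, against 4.82% of all probe sets. These were also the only member probe sets with a range of at least 2-fold, so 6 of 6 with such a range had that order. Among all 1923 probe sets with such a range, 22.8% had it. Msx1 had the order of Hoxa10 over all 6 pools. No member had all 6 pairs in the order of Foxj1, against 2.6% of all probe sets. The 5 genes matched Foxj1 in 4 pairs, since they shared its order in the lean pools and, of the overfed pairs, only in pools 2 and 3. Over all 14 probe sets, 79.8% of the within-group pairs had the order of Hoxa10 and 53.6% that of Foxj1, against 47.4% and 49.9% over all probe sets. Wnt7a matched Hoxa10 in 5 pairs with both its probe sets, Wnt4 and Wnt5a in 4 and Lhx1 in 1. The Msx2 probe sets differed, with 5 pairs for 1371292_at, which had the narrow range, 4 for 1391953_at and 3 for 1369880_at. These counts are descriptions, since the pairs share pools, 2 of the 6 probe sets measure Pax8, and the likeness to Hoxa10 and Foxj1 was looked for with earlier results known.

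**Figure D4:**
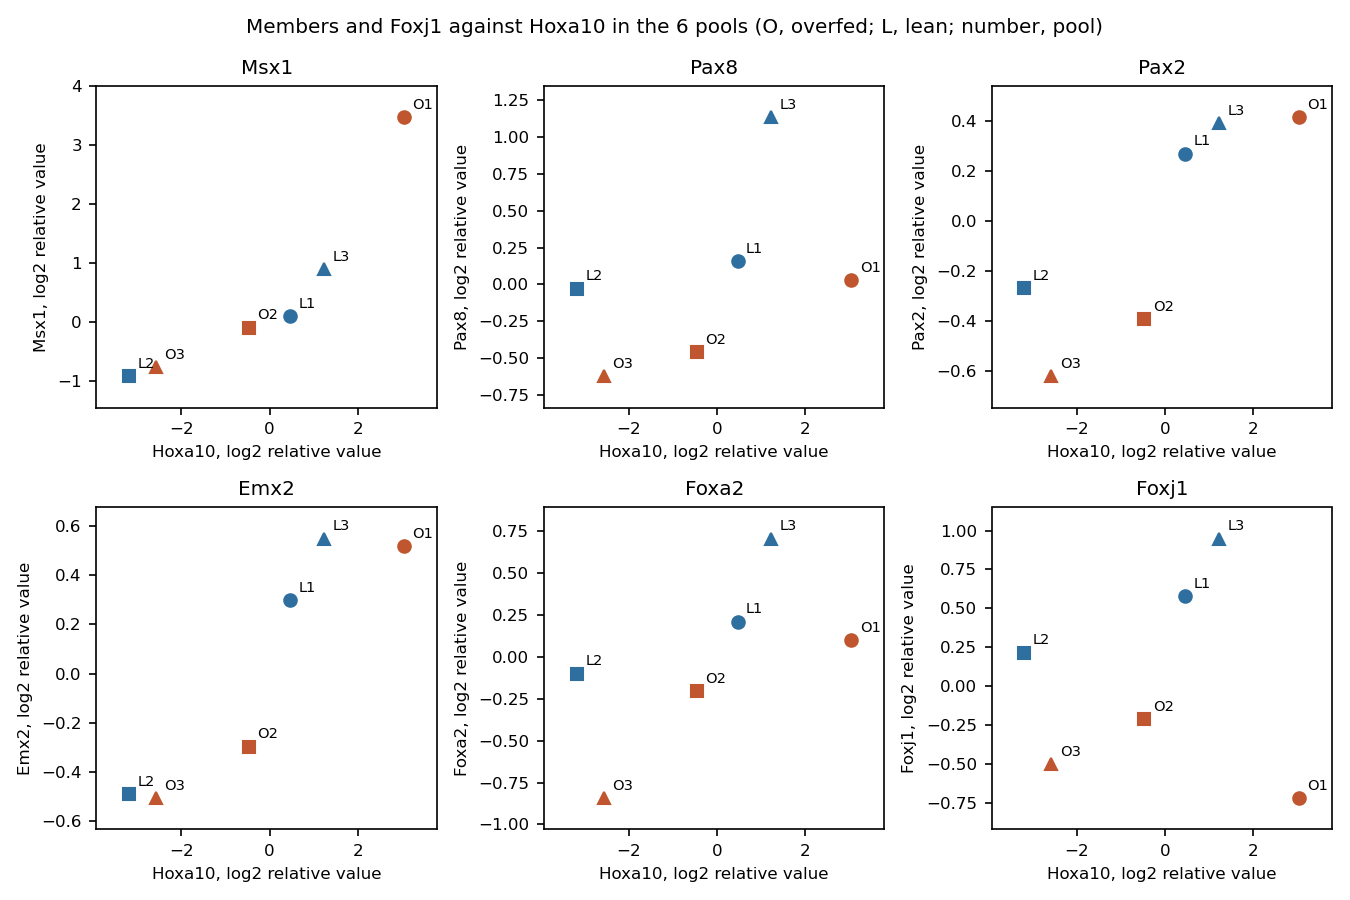
Log2 relative value of Msx1, Pax8 (1387730_at), Pax2, Emx2, Foxa2 and Foxj1 (vertical axes) against that of Hoxa10 (horizontal axis) in the 6 pools, overfed in orange and lean in blue. Overfed pool 1 (O1) lies at the top right for Msx1, among the high pools for Pax2 and Emx2, between the lean pools for Pax8 and Foxa2, and at the bottom for Foxj1.

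Within the 5 genes the height of overfed pool 1 differed. Relative to overfed pool 3, overfed pool 1 was higher by 4.24 in Msx1 and 5.61 in Hoxa10, by 1.04 in Pax2 and 1.02 in Emx2, by 0.94 in Foxa2 and by 0.65 and 1.14 in the probe sets of Pax8. In Foxj1 it was lower, at -0.22. Lean pool 3 exceeded lean pool 2 in each of these genes.

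Markers of other tissues moved with the same pools. The mean of 12 smooth muscle genes was 0.76, -0.28 and -0.46 in overfed pools 1 to 3, against 0.25, -0.80 and 0.58 in lean pools 1 to 3, and 9 of the 12, among them the contractile genes Myh11 and Actg2, had the within-group order of Hoxa10. The mean of 12 posterior Hox genes, Hoxa10 included, was 1.07, -0.23 and -0.83 in the overfed pools and 0.37, -0.91 and 0.54 in the lean pools, with 5 of 12, Hoxa10 itself among them, in that order. These are the pools in which Msx1, Pax2 and Emx2 were high or low. The 12 Hox genes were far apart in overfed pool 1, between -0.25 and 3.12, so their mean does not stand for each of them. The mean of 19 oviduct secretory and epithelial genes was -0.09, -0.15 and -0.53 in the overfed pools and 0.43, -0.09 and 0.56 in the lean pools, with 10 of 19 in the order of Hoxa10 and 0 in that of Foxj1. Pax8 and Foxa2 also had lean pool 3 highest and overfed pool 3 lowest. Overfed pool 1 was above lean pool 2 in both, whereas the 2 pools were almost level in this list mean. The groups did not overlap in 5 of the 19, Lcn2, Muc1 and Wfdc2 among them, against 1862 of all 14217 genes. The mean of 15 ciliated cell genes, Foxj1 included, was -0.75, -0.12 and -0.51 in the overfed pools and 0.40, 0.15 and 0.55 in the lean pools. Of the 15, 1 was in the order of Hoxa10 and 8, Foxj1 itself among them, in that of Foxj1. Of the 15 ciliated genes 14 were lower in overfed ovaries, 11 of them at an unadjusted p under 0.05 and 10 with at least 1.5-fold as well. Over all 14217 genes, 636 were lower at that p and 246 with at least 1.5-fold as well. Of the 19 secretory genes 17 were lower, 9 and 7 of them by these rules, led by the secreted lipocalin Lcn2 at -1.60, the epithelial mucin Muc1 at -0.97 and the secreted inhibitor Wfdc2 at -0.60. Of the smooth muscle genes 0 reached an unadjusted p of 0.05, with 5 higher and 7 lower, and of the posterior Hox genes only Hoxc8 did, at -0.72. None of these genes passed limma's adjusted threshold. The part of any such tissue in the members' values was not tested, and in bulk RNA fewer cells of a type and less RNA per cell cannot be told apart. In the hybridization controls, too, every lean array was above every overfed one, and their part in these lists was not tested.

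**Figure D5:**
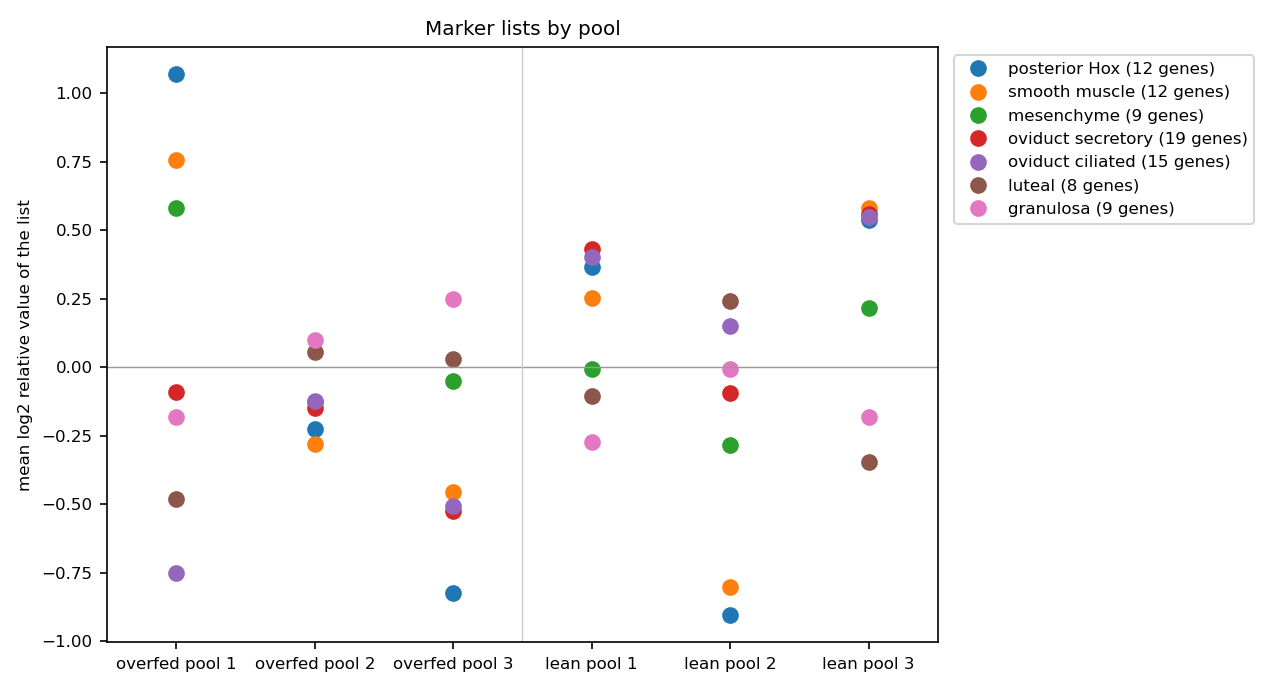
Mean log2 relative value (vertical axis) of 7 marker lists in each pool, overfed pools on the left. Posterior Hox, smooth muscle and mesenchyme lists are highest in overfed pool 1, at 1.07, 0.76 and 0.58, where the ciliated list is lowest, at -0.75.

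The remaining cell type lists were narrower. The mean of 9 mesenchyme genes was 0.58, -0.13 and -0.05 in the overfed pools and -0.007, -0.28 and 0.21 in the lean pools. Luteal genes (8 measured) averaged -0.48, 0.06 and 0.03 in the overfed pools and -0.11, 0.24 and -0.35 in the lean pools, and granulosa genes (9 measured) -0.18, 0.10 and 0.25 in the overfed pools and -0.27, -0.007 and -0.18 in the lean pools. Luteal genes were thus lowest in overfed pool 1 and lean pool 3, where Msx1 was highest. Mesothelium genes (9 measured) and uterine gland genes other than Foxa2 (5 measured) averaged 0.25 and 0.47 in overfed pool 1. In lean pool 3 they were at 0.29 and -0.10. In overfed pool 1 a single gene stood far above the rest of each list. Aldh1a2, picked out after its values were seen, was at 2.36 there, and the other mesothelium genes lay between -0.25 and 0.19. Areg was at 1.67, and the other gland genes lay between -0.02 and 0.40. A list of 5 measured genes of kidney-type tubules, which like the Müllerian epithelium use Pax2 and Pax8, had a median difference of -0.08. In it, 2 of 5 had a range of at least 2-fold. Cdh16 was at -0.46, with a range of 1.32 and all 6 within-group pairs in the order of Foxj1. Lrp2, picked out after its values were seen, was at -0.25, with a range of 1.95 and all 6 pairs in the order of Hoxa10. Slc12a1 was at 0.13 and Hnf4a at -0.08.

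Other genes of duct development and of the Wnt and BMP pathways gave no call after adjustment, as for all genes. Of 17 measured genes of duct development outside the 10, 8 had a higher and 9 a lower mean in overfed ovaries. The median difference was -0.003, against 0.01 over 14217 genes. The transcriptional cofactor Dach1 was at 0.34 (SE 0.09, unadjusted p = 0.00647, limma adjusted p = 0.623), with groups that did not overlap. The retinoic acid receptor Rara was at -0.20 without overlap, and the factor Sox17 at 0.26, with unadjusted p-values of 0.0906 and 0.118. The wide range of the progesterone receptor Pgr, 2.41, lay between pools, at 1.26 in overfed pool 1 and -1.14 in lean pool 2, and it was picked out after its values were seen.

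Among 10 other Wnt ligands 8 were higher and 2 lower, with a median of 0.05, and 0 reached an unadjusted p of 0.05, with Wnt6 at 0.21, Wnt9a at 0.32 and Wnt5b at -0.14. Of 13 receptors, 4 were higher and 9 lower (median -0.06), led by the co-receptor Lrp5 at -0.56 (SE 0.22, unadjusted p = 0.0405, limma adjusted p = 0.727), whose groups overlapped, and Fzd6 at -0.17, whose groups did not. Of 15 inhibitors, 9 were higher and 6 lower (median 0.06), with the secreted antagonists Dkk2 at 0.31 and Sfrp1 at 0.28, and the scaffold Axin1 at 0.11. The list of 14 Wnt targets and amplifiers had 8 higher and 6 lower (median 0.05). It held the largest difference of these pathway lists, the matricellular protein Ccn5 at -0.94 (SE 0.23, unadjusted p = 0.00449, limma adjusted p = 0.623), without overlap. Ccn5 had all 6 within-group pairs in the order of Foxj1. The nuclear effectors Tcf7l2 and Tcf7 were at 0.17 and 0.18.

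BMP signals induce Msx genes in many embryonic tissues. Of 16 measured genes of that pathway 8 were higher and 8 lower, with a median of -0.02. The receptor Bmpr2 was at 0.38 (SE 0.16, unadjusted p = 0.0447, limma adjusted p = 0.74) and the ligand Bmp5 at 0.15, both without overlap, and the ligand Bmp7 at -0.24 had the within-group order of Hoxa10 and Msx1. The 11 measured paralogues of the members outside the 10 had a median range of 0.22, and 0 of 11 had a range of at least 2-fold. The 3 with the lowest unadjusted p were Lhx2 at -0.11, without overlap, Pax4 at 0.13 and Pax6 at -0.08.

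The genes closest to Msx1 and to Pax8 were found by the root mean square difference over the 6 pools, among 14217 genes. For Msx1 they were the ATP-gated channel P2rx2 (0.25), the posterior Hox gene Hoxa11 (0.40), the retinoic acid binding protein Crabp1 (0.42), the organic cation transporter Slc47a1 (0.45) and the deiodinase Dio2 (0.49). All 5 were highest in overfed pool 1, from 2.44 to 3.28, against 3.48 for Msx1. For Pax8 they were the hemidesmosomal integrin Itgb4 (0.19), the mucin Muc1 (0.19), the ciliary factor Rfx2 (0.19), the fatty acid synthase Fasn (0.20) and the desaturase Scd (0.20). All 5 were highest in lean pool 3, from 0.80 to 0.99, against 1.14 for Pax8. Both genes were picked for this comparison after their values were seen, since no member had both a 1.5-fold difference and groups that did not overlap.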

How the data were processed

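Ovary RNA of 3 overfed and 3 lean pools was hybridized to 1 Affymetrix array each. Per the labels' protocols, RNA was isolated with TRI reagent and RNeasy columns, and biotin-labelled RNA was made by in vitro transcription. GCOS is named, per the submitters' processing notes, without its version. How probe sets were summarised, normalized or filtered, and the base of the logarithm, are not stated in the labels or notes. The deposited values are log values, read here as log2. Each probe set is centred: in all 31099 the median over the pools was 0, within 1e-06.

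Gene names came from the platform annotation, with symbols updated from a RefSeq gene table through Entrez identifiers (20758 probe sets matched). Of 31042 probe sets left after removing 57 array controls, 20826 had 1 gene name, 436 had several and 9780 were unnamed here. Each gene was represented by its probe set with a RefSeq accession, then of the unique type, then of the lowest number. The groups were compared by lmFit and eBayes of limma 3.58.1 in R 4.3.3, with no covariate, two-sided, and with Benjamini-Hochberg adjustment over all 31042 probe sets. Intervals are 95%, from limma's moderated error. Permutation tests used scipy 1.17.1. The fitting script was tested on simulated data. The labels do not say how the animals were divided among pools, so p-values measure the spread between these pools, whose number limits the precision. The SD over probe sets was between 0.14 and 0.29, widest in overfed pool 1. Deviations of pools of the same number were not correlated above 0.1 in every pair, so the numbers were not used as pairs.

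The members, gene lists, tests and alternatives were chosen with earlier results of these data known. Named are all member probe sets, Hoxa10, Foxj1, up to 3 genes of lowest unadjusted p in each list, and genes closest by pool pattern. Myh11, Actg2 and the genes said to be picked after their values were seen fall outside that rule. Alternatives were quantile normalization, centring of array medians, a robust prior, weights for arrays, a block for pool number, each pool left out, removal of probe sets with an SD over the 6 pools up to the median SD, and means over a gene's probe sets. Leaving out lean pool 3 with overfed pool 1, and the pool order from gene means, were added after seeing the data.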

Additional observations from a re-analysis of the deposited data

How the results depend on the processing

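No member passed limma's adjusted threshold in any of 193 alternative fits of single probe sets (smallest adjusted p = 0.405, for Pax8, with the probe sets of smaller SD left out). That filter, on the SD over all 6 pools, kept 15521 probe sets, of which 62 passed, against 0 in every other fit, and at an unadjusted p under 0.05 with at least 1.5-fold it gave 464 of them and 3 of the 11 member probe sets kept (both of Pax8 and Foxa2). Without the filter that count was 403 of 31042 and 1 of 14. Wnt4 did not reach an unadjusted p of 0.05 under the filter. The filter uses the same values as the test. A robust prior, a block for pool number and that filter leave each difference as it was, so its direction could not turn there. The same holds for means over a gene's probe sets where the gene has 1 probe set. The direction was kept in 178 of all 193. With 1 pool left out it turned for Emx2 (-0.520 to 0.00230), Wnt7a (1380958_at, -0.0312 to 0.126, and 1398645_at, -0.226 to 0.0827), Msx1 (-0.453 to 1.67) and Msx2 (1369880_at, -0.126 to 0.10, 1371292_at, -0.0164 to 0.0484, and 1391953_at, -0.0256 to 0.199). With both lean pool 3 and overfed pool 1 left out, an alternative chosen after seeing the data, Msx1 was at -0.0182. Means over a gene's probe sets put Wnt7a at 0.00724 and Msx2 at 0.0314, and turned the median of the duct development list to 0.04 and that of the BMP list to 0.02.

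The count at 1.5-fold was 0 to 4 with 1 pool left out. It was 0 without lean pool 3, overfed pool 2 or overfed pool 3, 3 without lean pool 2 (both Pax8 probe sets and Foxa2) and 4 without overfed pool 1 (the same and Pax2). Over all probe sets that count was 295 without lean pool 3, 516 without overfed pool 2, 355 without overfed pool 3, 650 without lean pool 2 and 472 without overfed pool 1, against 403 with all pools. It was thus above 403 without overfed pool 2, where no member was counted. The count of members whose groups did not overlap was 2 to 4 with 1 pool left out, where 21.4% to 23.7% of all probe sets did not overlap, and 5 with both of those pools left out, where 34.8% did not. Fewer pools raise that count by construction, and the cause of the other changes was not tested. With the pool number as a replicate block the count at 1.5-fold was 0, and neither Pax8 (1387730_at) nor Wnt4 reached an unadjusted p of 0.05. Deviations of same-numbered pools correlated across probe sets at 0.0970, 0.170 and -0.284 for pools 1, 2 and 3, and of the overfed pools only pool 2 correlated best with the lean pool of its own number. The share of within-group pairs in the order of Hoxa10 was between 77.4% and 81.7%, and that in the order of Foxj1 between 48.8% and 55.0%, over the alternatives run. The centred values hold no signal over background, so dim probe sets could not be set apart.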

Other observations

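Several Wnt and BMP pathway genes, picked here after their values were seen, had ranges over the pools wider than those of Pax8 and narrower than that of Msx1. The BMP antagonist Grem1 had a range of 3.53, with 2.35, 0.06 and -0.58 in overfed pools 1 to 3, against 0.41, -1.18 and -0.06 in lean pools 1 to 3. Overfed pool 1 was its highest pool and lean pool 2 its lowest, as in Msx1. The Wnt target Lgr5, a stem cell marker, was at 2.24, -0.17 and -0.53 in the overfed pools and 0.17, -0.34 and 0.92 in the lean pools. All 6 of its within-group pairs had the order of Hoxa10. The secreted Wnt antagonist Frzb stood at 1.96 and the BMP antagonist Chrd at 1.55 in overfed pool 1, the highest pool of both, with 5 such pairs each. Another secreted Wnt antagonist, Sfrp2, was at 1.12 in overfed pool 1 and 1.22 in lean pool 3, its highest pools. The groups overlapped in all 5 genes, and none passed limma's adjusted threshold (0.89, SE 0.76, adjusted p = 0.88 for Grem1).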
